A study of Mus musculus with 20 samples.

Results

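The line difference in estrus was measured in granulosa cells (GCs) of 10 mice, 5 of the high-fertility line FL1 and 5 of the unselected line ctrl, out of 20 mice in the series. The members are every GC sample labelled estrus, and the counts of each sample were compared between the lines over all genes. Each sample came from 1 female aged 77 ± 5 days, from whose ovaries 7 to 10 of the largest follicles were opened and only the mural GCs were taken, without the oocyte and the cumulus cells. Estrus had been assigned from vaginal smears that held cornified cells only. Both lines go back to the same crossbred founder population. FL1 has since been bred for litter size and, in earlier generations, also for litter weight, while ctrl has been bred without selection. No mouse carried a transgene or was given a treatment. The other 10 mice, 5 of each line in diestrus, are used only to set the values in estrus against those of another stage of the cycle.

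GCs line the wall of the ovarian follicle. They respond to follicle-stimulating hormone, turn androgens into estrogens, secrete inhibins and activins, and are coupled to each other and to the oocyte by gap junctions. Around ovulation luteinizing hormone makes them stop dividing and become luteal cells, which take up cholesterol and make progesterone, and which express receptors for luteinizing hormone, prolactin and prostaglandin F. In the mouse progesterone is inactivated in the ageing corpus luteum by the enzyme encoded by Akr1c18. Estrus follows ovulation, so that new corpora lutea and the next set of growing follicles lie side by side in the ovary at this stage.

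The libraries read the 3′ ends of polyadenylated RNA, and between 5699991 and 8257041 reads per mouse were counted on genes. Values are given in CPM, which brings the counts on genes of every library to the same total after scaling by TMM, a method that sets the bulk of the genes equal between samples. Values of single mice are listed in the order of replicates 1 to 5 of each line. These numbers come from the labels, name different mice and do not link a ctrl with an FL1 mouse. Of 13007 genes with enough counts, 100 (0.769%) were called differentially expressed by edgeR's quasi-likelihood test at a Benjamini-Hochberg adjusted p of 0.05 or less. These were 54 genes higher in FL1 (0.415%) and 46 lower (0.354%). The median log2 fold change over all genes tested was 0.0054. DESeq2 called 422 of 24103 genes (1.75%), 255 higher (1.06%) and 167 lower (0.693%). Calls given below without a tool are those of edgeR. Of the 100 genes 51 are not in the gene tables of the study, 24 of them higher and 27 lower. By size, 98 of the 100 differed by a log2 fold change of at least 1, 53 of at least 2 and 19 of at least 4. They were chosen by their p with 5 mice per line, which favours large fitted sizes. In the 10 fits that each left out 1 mouse, 52 of the 100 genes were called every time and 35 were called in 5 fits or fewer. FL1 replicate 2 held the highest FL1 value for 30 of the 54 higher genes, and without it 71 genes were called, 63 of them among the 100. Without FL1 replicate 1 the number was 66. In bulk RNA, a larger share of cells of one type and more RNA per cell cannot be told apart.

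The GC identity of the samples was read from 14 marker genes, of which 0 were called by edgeR or DESeq2. An unadjusted p under 0.05 was found for 5 of them (35.7%), against 10.7% of all genes tested. These were Esr2, Hsd17b1 and Gja1, with negative log2 fold changes, and Inhba and Inhbb, with positive ones. The FSH receptor gene Fshr stood at 38.5, 45.3, 50.7, 40.7 and 55.3 CPM in the ctrl mice and 53.7, 31.8, 38.1, 77.9 and 72.1 CPM in the FL1 mice, and the ranges of the lines overlapped. Foxl2, the transcription factor that maintains the GC fate, stood at 616, 461, 579, 351 and 649 CPM in the ctrl mice and 407, 365, 548, 258 and 494 CPM in the FL1 mice, again with overlap (log2 fold change −0.36 with an SE of 0.22, adjusted p = 0.619 by edgeR). The inhibin alpha gene Inha was among the most abundant transcripts and stood at 5642, 4057, 4431, 4161 and 5144 CPM in the ctrl mice and 3849.8, 2745, 4719, 4302 and 5271 CPM in the FL1 mice. Summed over the 14 markers, levels were 11992 to 16297 CPM in ctrl and 8809.5 to 17639 CPM in FL1 mice, and FL1 replicate 2 had the lowest sum.

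Of 10 marker genes of luteal cells, 5 were higher in FL1 mice and the other 5 did not pass the test. All 10 had a positive log2 fold change, with a median of 2.05 against 0.0054 over all genes tested, and the called genes were Akr1c18, Runx2, Lhcgr, Prlr and Star. For 9 of the 10 every FL1 mouse lay above every ctrl mouse, which was so for 1.81% of all genes tested, while 1.74% had every FL1 mouse below. Akr1c18, Lhcgr, Prlr, Star, Sfrp4 and Hsd3b1 are in tables that the study drew from these same samples, so that their direction is not independent evidence. Runx2, Ptgfr and Scarb1 are in its tables for diestrus. Without FL1 replicate 2 the median was 1.74 and 3 of the 10 were called.

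Akr1c18, the progesterone-inactivating enzyme, stood at 71.3, 39.6, 186, 168 and 119 CPM in the ctrl mice and 2111, 631, 3634, 651 and 2436 CPM in the FL1 mice. FL1 replicates 1, 3 and 5 stood highest and no value of the lines overlapped (log2 fold change 4.02 with an SE of 0.50, adjusted p = 0.000306 by edgeR). Star, which carries cholesterol into mitochondria, stood at 56.0, 99.5, 305, 174 and 118 CPM in the ctrl mice and 356, 654, 1024, 795 and 397 CPM in the FL1 mice. The lowest FL1 value, 356 CPM, exceeded the highest ctrl value (log2 fold change 2.10 with an SE of 0.38, adjusted p = 0.0106 by edgeR), and all 10 fits without 1 mouse called the gene. The receptor for luteinizing hormone, Lhcgr, stood at 5.03, 4.87, 36.4, 9.13 and 30.0 CPM in the ctrl mice and 75.2, 418, 59.7, 44.6 and 98.1 CPM in the FL1 mice. FL1 replicate 2 exceeded the rest of its line by far, the ranges did not overlap (log2 fold change 3.02 with an SE of 0.65, adjusted p = 0.0327 by edgeR), and without that mouse the log2 fold change was 2.02 (adjusted p = 0.105 by edgeR). The prolactin receptor gene Prlr stood at 96.4, 98.1, 149, 181 and 236 CPM in the ctrl mice and 395, 1651, 291, 533 and 515 CPM in the FL1 mice. FL1 replicate 2 again stood apart, and the groups were separate (log2 fold change 2.16 with an SE of 0.40, adjusted p = 0.0118 by edgeR). Without that mouse the value for Prlr was 1.51 (adjusted p = 0.0102 by edgeR). Runx2, a transcription factor induced during ovulation, stood at 0.296, 16, 16.3, 4.94 and 1.76 CPM in the ctrl mice and 91.1, 287, 29.4, 35.2 and 29.1 CPM in the FL1 mice. All FL1 mice were above all ctrl mice (log2 fold change 3.57 with an SE of 0.79, adjusted p = 0.0396 by edgeR), and 4 of the 10 fits without 1 mouse called it. Leaving out FL1 replicate 2 gave 2.54 (adjusted p = 0.149 by edgeR).

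The other 5 luteal markers did not pass the test. Cyp11a1, which makes pregnenolone from cholesterol, stood at 124, 494, 949, 1096 and 727 CPM in the ctrl mice and 1613, 6260.4, 2158, 2272 and 1226 CPM in the FL1 mice, without overlap of the lines (log2 fold change 2.0 with an SE of 0.47, adjusted p = 0.0563 by edgeR). FL1 replicate 2 held the highest and ctrl replicate 1 the lowest value. DESeq2, limma-voom and edgeR without a filter on low counts called Cyp11a1, as did edgeR without FL1 replicate 5 (log2 fold change 2.19, adjusted p = 0.0439). Ptgfr, the receptor for prostaglandin F, stood at 19.2, 1.89, 32.4, 50.1 and 63.2 CPM in the ctrl mice and 98.1, 111.8, 189, 116.1 and 114.5 CPM in the FL1 mice (log2 fold change 1.92 with an SE of 0.51, adjusted p = 0.0946 by edgeR). Sfrp4, a secreted Wnt inhibitor, and Hsd3b1, which makes progesterone, differed by 1.27 and 0.84 on the log2 scale (adjusted p = 0.0855 and 0.108 by edgeR), with every FL1 mouse above the ctrl mice. The ranges of Scarb1, a receptor for high-density lipoprotein, overlapped, and its log2 fold change was 0.17 (adjusted p = 0.804 by edgeR). In diestrus the median of the 10 genes was 1.47, with 2 called higher against 0.0931% of all genes tested in that stage. Star, Runx2, Ptgfr and Scarb1 are in the study's tables for diestrus, so this is not independent of them.

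**Figure D1:**
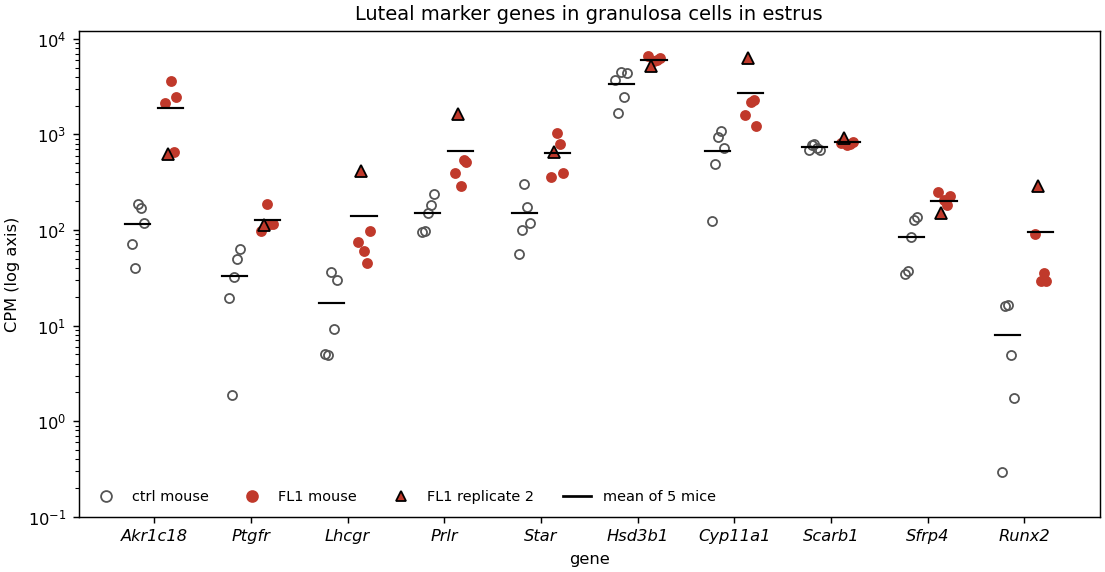
CPM of the 10 luteal marker genes (log axis) in each ctrl and FL1 mouse in estrus, with FL1 replicate 2 as a triangle and the mean of 5 mice as a bar. The FL1 mice lie above the ctrl mice for every gene but Scarb1, and FL1 replicate 2 stands apart for Lhcgr, Prlr, Cyp11a1 and Runx2.

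The markers of other cell types were read in the same way. The summed luteal markers were 3245 to 7092 CPM in ctrl and 11422 to 16321 CPM in FL1 mice, so that the lines were separate in estrus, whereas in diestrus they were 2587 to 7290.0 CPM in ctrl and 4953 to 10824 CPM in FL1 mice. FL1 replicate 2 had the highest luteal sum. Macrophage markers, of which 13 of 15 could be tested, had a median log2 fold change of 1.13 with 0 called by edgeR, 1 with an unadjusted p under 0.05 and 1 called by DESeq2. Their sum was 47.1 to 127 CPM in ctrl and 97.4 to 226 CPM in FL1 mice, and of them the lysozyme gene Lyz2 stood at 5.03, 7.39, 4.75, 15.7 and 28.4 CPM in the ctrl mice and 39.5, 18.0, 65.5, 69.2 and 48.8 CPM in the FL1 mice (log2 fold change 1.98 with an SE of 0.49, adjusted p = 0.0668 by edgeR). Without FL1 replicate 2 Lyz2 was called, at 2.19 (adjusted p = 0.0406 by edgeR). FL1 replicate 2, the lowest FL1 mouse for the macrophage sum, lay within the ctrl range. Neutrophil markers were at 0 CPM in every ctrl mouse and at 0 to 1.37 CPM in FL1 mice, T and NK cell markers added up to 0 to 0.748 CPM in ctrl and 0 to 4.46 CPM in FL1 mice, and none of them had enough counts for a test. Theca and stroma (652 to 1392 CPM in ctrl and 945 to 1816 CPM in FL1 mice), smooth muscle (265 to 877 CPM in ctrl and 503 to 1233 CPM in FL1 mice) and endothelium (41.0 to 121 CPM in ctrl and 54.6 to 146 CPM in FL1 mice) overlapped between the lines, with 0 genes called by edgeR or DESeq2 and 3 with an unadjusted p under 0.05. Oocyte markers were present in every mouse (162 to 715 CPM in ctrl and 229 to 624 CPM in FL1 mice), with overlap, as were the hemoglobin genes and Alas2 of the erythroid list (294 to 686 CPM in ctrl and 326 to 1125 CPM in FL1 mice). Markers of the ovarian surface and oviduct epithelium were low (12.6 to 38.3 CPM in ctrl and 36.0 to 92.5 CPM in FL1 mice), with a median of 1.56 over 7 genes tested, and so were adipocyte markers (4.04 to 22.6 CPM in ctrl and 24.1 to 66.4 CPM in FL1 mice), with a median of 2.19 over 3 genes tested and no overlap of the sums. The part that other cells had in the differences between the lines was not tested.

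**Figure D2:**
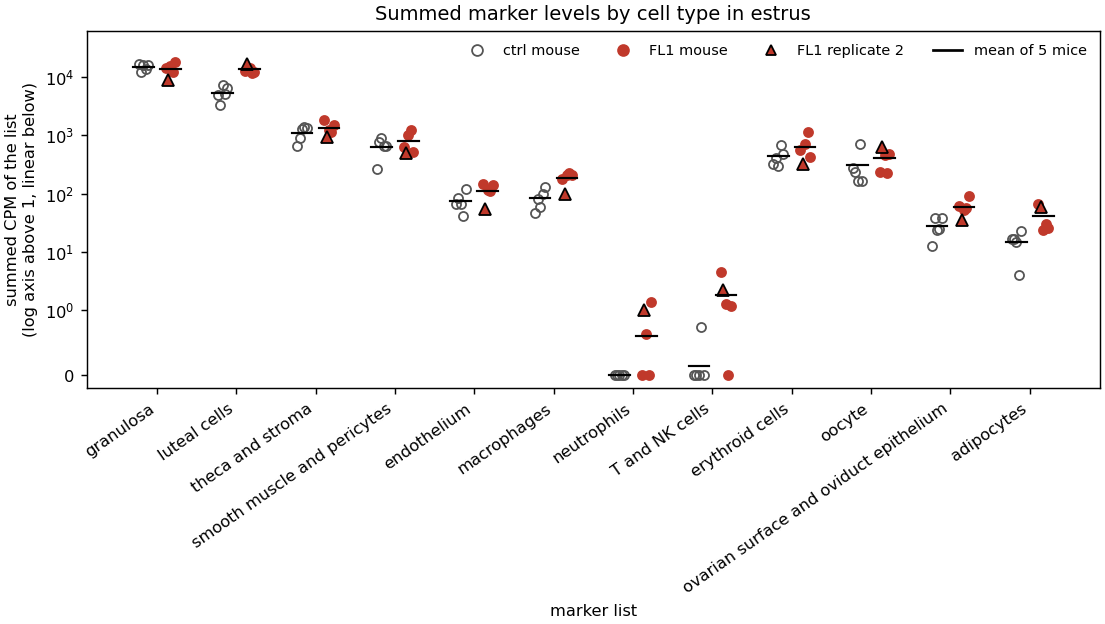
Summed CPM of 12 marker lists (axis logarithmic above 1 and linear below) in each mouse in estrus, with FL1 replicate 2 as a triangle and the mean of 5 mice as a bar. The lines are separate for the luteal and adipocyte sums, overlap for the granulosa sum, and neutrophil and T and NK cell sums are below 5 CPM in every mouse.

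Of the wider list of 19 hormone receptor genes tested, 3 were higher in FL1 and none lower, with a median log2 fold change of 0.43. Besides Lhcgr and Prlr this was the oxytocin receptor gene Oxtr, which stood at 4.59, 12.7, 31.0, 10.6 and 4.04 CPM in the ctrl mice and 123, 313, 50.6, 38.8 and 70.0 CPM in the FL1 mice. FL1 replicates 1 and 2 were highest and the lines did not overlap (log2 fold change 3.23 with an SE of 0.59, adjusted p = 0.0118 by edgeR). Its value was 2.47 (adjusted p = 0.032 by edgeR) without FL1 replicate 2 and 3.89 (adjusted p = 0.00532 by edgeR) without ctrl replicate 3. The estrogen receptor gene Esr2, the main estrogen receptor of GCs, stood at 213, 97.9, 197, 183 and 139 CPM in the ctrl mice and 103.2, 51.0, 129, 146 and 91.9 CPM in the FL1 mice, with overlap (log2 fold change −0.67 with an SE of 0.27, adjusted p = 0.336 by edgeR). Igf1r and Insr, the receptors for insulin-like growth factor and insulin, overlapped and differed by −0.33 and −0.11 on the log2 scale (adjusted p = 0.728 and 0.959 by edgeR). The sign for Insr depended on the mouse left out and on the tool. The progesterone receptor gene Pgr was below 5 CPM in every mouse, and Ptgs2, the ovulatory cyclooxygenase, was too low for a test.

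Steroid enzymes did not move as a block. Of 21 genes tested 3 were higher (Akr1c18, Star and Fdx1) and 1 was lower (Cyp1b1) by edgeR, and the median log2 fold change was 0.19. DESeq2 called 6 higher and 1 lower, and 10 (47.6%) had an unadjusted p under 0.05, against 10.7% of all genes tested. Fdx1, the ferredoxin that passes electrons to Cyp11a1, stood at 177, 317, 301, 347 and 420.1 CPM in the ctrl mice and 793, 2494, 753, 499 and 611 CPM in the FL1 mice. The FL1 values were all above the ctrl values, with replicate 2 far above the rest (log2 fold change 1.72 with an SE of 0.37, adjusted p = 0.0327 by edgeR), and without that mouse the log2 fold change was 1.09 (adjusted p = 0.0356 by edgeR). Fdx1 was called in 5 of 10 fits without 1 mouse. Cyp1b1, which hydroxylates estrogens, stood at 223, 144, 191, 269 and 165 CPM in the ctrl mice and 37.6, 27.5, 48.3, 51.2 and 54.1 CPM in the FL1 mice. Here the highest FL1 value was below the lowest ctrl value (log2 fold change −2.18 with an SE of 0.24, adjusted p = 5.84e-05 by edgeR), and every fit without 1 mouse called it. Aromatase (Cyp19a1), which makes estrogens, stood at 50.2, 18.5, 29.3, 21.6 and 67.2 CPM in the ctrl mice and 33.9, 26.1, 51.9, 21.9 and 105.5 CPM in the FL1 mice and overlapped (log2 fold change 0.36 with an SE of 0.43, adjusted p = 0.865 by edgeR). Hsd17b1, which makes estradiol from estrone, had 697 ± 164 CPM in ctrl and 377 ± 165 CPM in FL1 mice (SD, n = 5 each) and was not called (adjusted p = 0.174 by edgeR). None of 28 genes of cholesterol synthesis and supply was called by edgeR or DESeq2, and 4 had an unadjusted p under 0.05. The sign of Cyp19a1 changed when 1 mouse was left out.

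The activin subunit genes Inhba and Inhbb, which are on the list of inhibin, activin, AMH and BMP signals, differed by 1.0 and 1.0 on the log2 scale (adjusted p = 0.326 and 0.205 by edgeR). Amh, which is made by GCs of small growing follicles, stood at 14.2, 12.1, 11.4, 1.35 and 0 CPM in the ctrl mice and 0.319, 3.41, 6.33, 8.67 and 7.02 CPM in the FL1 mice. It was low in both lines and overlapped. Among 20 transcription factors of GCs, 3 were higher (Runx2, Rora and Maf) and none lower. The value for Rora was 2.47, and without FL1 replicate 2 1.69 (adjusted p = 0.0308 by edgeR). Gata4, a factor of GC development, had 286 ± 93.3 CPM in ctrl and 178 ± 58.4 CPM in FL1 mice (SD, n = 5 each), and its difference was not called (log2 fold change −0.68, adjusted p = 0.294 by edgeR). Nr5a1 overlapped too (log2 fold change 0.25, adjusted p = 0.857 by edgeR).

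Cell cycle genes were mostly below 0 without a single call. Of 37 genes tested, 33 had a negative log2 fold change, with a median of −0.35, and 10 had an unadjusted p under 0.05, against 10.7% of all genes. DESeq2 called 2 of them lower. Mki67, a marker of dividing cells, stood at 123, 195, 145, 65.0 and 33.2 CPM in the ctrl mice and 25.2, 11, 23.3, 97.1 and 52.6 CPM in the FL1 mice. FL1 replicates 1 to 3 were below every ctrl mouse and replicates 4 and 5 were within their range (log2 fold change −1.43 with an SE of 0.49, adjusted p = 0.241 by edgeR). Ccnd2, the D-type cyclin that FSH induces in GCs, stood at 2502, 2439, 2235, 1825 and 1609 CPM in the ctrl mice and 1187, 1277, 1697, 1965 and 2326 CPM in the FL1 mice, with overlap (log2 fold change −0.33 with an SE of 0.21, adjusted p = 0.63 by edgeR). Without FL1 replicate 2 the median of the list was −0.24, and in diestrus it was 0.17. Of 37 genes of apoptosis and survival none was called by edgeR, while DESeq2 called 1 in each direction and 7 had an unadjusted p under 0.05. Bcl2, which blocks apoptosis, was low, at 3.91 ± 3.51 CPM in ctrl and 12.5 ± 6.24 CPM in FL1 mice (SD, n = 5 each), and was not called (adjusted p = 0.493 by edgeR). Bax, which promotes it, had a log2 difference of 0.10 (adjusted p = 0.943 by edgeR), whose sign changed without ctrl replicate 3. Gap junction and meiotic arrest genes had 0 calls by edgeR among 11 tested, 1 in each direction by DESeq2 and 3 with an unadjusted p under 0.05. Gja1, the main connexin of GCs, stood at 4837, 4913, 5456, 5301 and 4526 CPM in the ctrl mice and 3699.9, 2069, 4113, 2098 and 5384 CPM in the FL1 mice (log2 fold change −0.53 with an SE of 0.23, adjusted p = 0.415 by edgeR). Nppc, the peptide that holds the oocyte in meiotic arrest, and its receptor gene Npr2 overlapped (log2 fold change −0.29 and −0.34, adjusted p = 0.895 and 0.829 by edgeR).

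Metallothioneins are small proteins that bind zinc and copper, and of 3 such genes tested Mt2 and Mt1 were higher in FL1 mice in estrus. The other one, Mt3, overlapped and was not called (log2 fold change −0.30, adjusted p = 0.936 by edgeR). Mt2 stood at 351, 376, 249, 258 and 268 CPM in the ctrl mice and 676, 1148, 698, 837 and 610.0 CPM in the FL1 mice. The lowest FL1 value was above the highest ctrl value (log2 fold change 1.40 with an SE of 0.21, adjusted p = 0.00227 by edgeR). Mt1 stood at 411, 499.7, 483, 488 and 563 CPM in the ctrl mice and 838, 1412, 822, 934 and 902 CPM in the FL1 mice, also with no overlap and with FL1 replicate 2 on top (log2 fold change 1.01 with an SE of 0.19, adjusted p = 0.0125 by edgeR). In diestrus Mt2 differed by −0.11 and Mt1 by 0.10 on the log2 scale (adjusted p = 1 and 1 by edgeR), and the interaction with the stage had an unadjusted p under 0.05 for both that did not pass after adjustment. The genes lie 5.51 kb apart on chromosome 8, with no other tested gene between them. Of 14 genes of zinc and copper handling tested, these 2 were called, and the median log2 fold change of the list was 0.43.

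Metallothionein promoters are known for metal response elements, the sites of the zinc-sensing factor MTF1, with the core TGCNCNC. The 250 bases before the RefSeq start of each gene (GRCm38.p6, plus strand; Mt2 at chr8:94172368-94172617 and Mt1 at chr8:94178839-94179088) are shown because this pair of neighbours moved together, and capitals mark matches to the core on either strand.
Mt2: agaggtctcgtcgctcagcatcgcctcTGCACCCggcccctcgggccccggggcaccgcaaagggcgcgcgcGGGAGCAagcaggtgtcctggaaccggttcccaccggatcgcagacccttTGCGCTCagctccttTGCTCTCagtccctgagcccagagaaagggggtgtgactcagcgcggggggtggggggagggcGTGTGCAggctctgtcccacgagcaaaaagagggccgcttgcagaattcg
Mt1: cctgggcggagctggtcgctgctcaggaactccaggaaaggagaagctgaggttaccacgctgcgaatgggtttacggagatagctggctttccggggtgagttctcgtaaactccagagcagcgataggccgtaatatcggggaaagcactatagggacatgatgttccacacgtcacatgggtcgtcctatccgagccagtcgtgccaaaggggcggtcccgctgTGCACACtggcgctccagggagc
The Mt2 window held 5 matches, none of them overlapping, and the Mt1 window held 1, which began 23 bases before the RefSeq start. The GENCODE start of Mt2, at 94172664, lies past the end of its window, and that of Mt1, at 94179082, lies inside its window. The windows thus lie differently to the gene starts, and the numbers of matches are not comparable between the genes. Bases after the windows were not searched. Of 32851 promoter windows of the same length, 44.4% held at least 1 match and 0.344% at least 5. A match is a run of letters and was not tested as a site.

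Calcium-binding S100 proteins, annexins and galectins had the highest median of the 30 function lists, 0.72. Of 18 genes tested 15 were above 0, 3 were called higher (S100a4, S100a11 and Lgals3) and none lower. S100a11 (ENSMUSG00000027907, plus strand of chromosome 3 at 93520488-93526287) stood at 32.7, 19, 41.7, 48.5 and 36.3 CPM in the ctrl mice and 123, 107.6, 122, 88.2 and 101.7 CPM in the FL1 mice. The lines were well apart (log2 fold change 1.6 with an SE of 0.24, adjusted p = 0.00285 by edgeR), though S100a11 has 5 near-identical copies in the genome, and its reads may be split with them. S100a4 stood at 10.5, 6.91, 17.3, 26.2 and 33.7 CPM in the ctrl mice and 100.8, 60.3, 117, 177 and 45.2 CPM in the FL1 mice (log2 fold change 2.41 with an SE of 0.42, adjusted p = 0.00817 by edgeR). Lgals3, a galectin that binds galactose-bearing glycans, stood at 2.96, 14.5, 12.4, 17.7 and 21.1 CPM in the ctrl mice and 45.9, 112.4, 95.9, 65.5 and 84.7 CPM in the FL1 mice, without overlap (log2 fold change 2.56 with an SE of 0.40, adjusted p = 0.00296 by edgeR). Among members that did not pass, S100a6 had 347 ± 207 CPM in ctrl and 897 ± 193 CPM in FL1 mice (SD, n = 5 each) and Anxa5 128 ± 39.0 CPM in ctrl and 306 ± 195 CPM in FL1 mice (SD, n = 5 each), with adjusted p = 0.0944 and 0.0726 by edgeR and no overlap of the lines. DESeq2 called 7 of the 18 higher, and the median was 0.68 without FL1 replicate 2 and 0.33 in diestrus. Lgals3 and S100 proteins are also made by macrophages, whose summed markers are given above.

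Further higher genes encode proteins of the cytoskeleton and the cell surface. Tmsb4x (ENSMUSG00000049775, minus strand of chromosome X at 167207093-167209315), which encodes the actin-monomer binding peptide thymosin beta, stood at 113.5, 211, 228, 245 and 263 CPM in the ctrl mice and 389, 537, 621, 438 and 399 CPM in the FL1 mice. All FL1 values exceeded the ctrl values (log2 fold change 1.17 with an SE of 0.23, adjusted p = 0.0145 by edgeR). Pdlim2, an actin-associated protein with a LIM domain, stood at 18.8, 21.2, 9.38, 14.8 and 9.30 CPM in the ctrl mice and 43.6, 109.1, 36.7, 45.9 and 39.2 CPM in the FL1 mice, with FL1 replicate 2 more than the others (log2 fold change 1.90 with an SE of 0.36, adjusted p = 0.0141 by edgeR). Without that mouse it was not called, at 1.49 (adjusted p = 0.0665 by edgeR). Igsf3 (ENSMUSG00000042035, plus strand of chromosome 3 at 101377083-101463059), an immunoglobulin-like membrane protein, stood at 76.2, 87.2, 59.1, 79.3 and 63.0 CPM in the ctrl mice and 243, 222, 119.6, 191 and 174 CPM in the FL1 mice. Its groups were separate and all 10 fits without 1 mouse called it (log2 fold change 1.38 with an SE of 0.21, adjusted p = 0.00296 by edgeR). Parvb, which links integrins to actin, overlapped in 1 mouse, since FL1 replicate 3 had 18.8 CPM and ctrl replicate 2 26.9 CPM (log2 fold change 2.68 with an SE of 0.51, adjusted p = 0.0141 by edgeR). Without FL1 replicate 2 Parvb stood at 1.92 (adjusted p = 0.0398 by edgeR) on the log2 scale. Parvb shares a stretch of its 3′ end with more than 100 other genes. In the other direction, the guanine nucleotide exchange factor gene Arhgef28 fell (log2 fold change −1.22, adjusted p = 0.0141 by edgeR), as did Jam2 (ENSMUSG00000053062, plus strand of chromosome 16 at 84774123-84825928), a junctional adhesion molecule that stood at 156, 232, 211, 202 and 167 CPM in the ctrl mice and 70.1, 83.0, 95.1, 90.4 and 120.2 CPM in the FL1 mice (log2 fold change −1.07 with an SE of 0.20, adjusted p = 0.0117 by edgeR).

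The transcript with the lowest p among the higher genes was Zpld1 (ENSMUSG00000064310, minus strand of chromosome 16 at 55225175-55297986), which encodes a membrane protein with a zona pellucida-like domain. It stood at 3.11, 0, 3.82, 2.10 and 0.527 CPM in the ctrl mice and 372, 110.6, 149, 409.5 and 244 CPM in the FL1 mice. Ctrl mice were near 0 and every FL1 mouse was above 100 CPM (log2 fold change 7.0 with an SE of 0.59, adjusted p = 2.85e-06 by edgeR). In diestrus its log2 fold change was 5.33 (adjusted p = 2.09e-05 by edgeR). Dnajb14 (ENSMUSG00000074212, plus strand of chromosome 3 at 137867675-137916557), a co-chaperone in the membrane of the endoplasmic reticulum, stood at 105.98, 103.4, 89.7, 78.4 and 126 CPM in the ctrl mice and 263, 207, 301, 289 and 253 CPM in the FL1 mice. The lines did not overlap (log2 fold change 1.38 with an SE of 0.19, adjusted p = 0.00102 by edgeR). The chaperone list, which does not hold Dnajb14, had 0 of 23 genes called by edgeR and 1 lower by DESeq2, with 6 at an unadjusted p under 0.05. Less abundant, Cited4, a coactivator that binds the acetylases CBP and p300, stood at 8.73, 18.5, 13.1, 18.6 and 21.2 CPM in the ctrl mice and 98.3, 242, 27.9, 37.9 and 50.5 CPM in the FL1 mice. All FL1 mice were above the ctrl mice, with replicate 2 far ahead (log2 fold change 2.51 with an SE of 0.49, adjusted p = 0.0149 by edgeR). Its value was 1.74 (adjusted p = 0.0486 by edgeR) without that mouse and 2.44 (adjusted p = 0.054 by edgeR) without ctrl replicate 3. Avpi1, named for its induction by vasopressin, stood at 13.6, 26.1, 19.6, 17.1 and 24.2 CPM in the ctrl mice and 50.5, 115.6, 53, 37.9 and 36.6 CPM in the FL1 mice (log2 fold change 1.55 with an SE of 0.33, adjusted p = 0.0327 by edgeR), and 4 of 10 fits without 1 mouse called it. The gene BC005537, of no known function, rose modestly (log2 fold change 0.93 with an SE of 0.19, adjusted p = 0.0179 by edgeR) and was called in 7 of 10 fits without 1 mouse.

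Several higher genes were at or near 0 in ctrl mice. Adh7, an alcohol dehydrogenase that acts on retinol, stood at 0, 0, 0, 0.299 and 0 CPM in the ctrl mice and 5.89, 10.1, 1.90, 13.1 and 3.94 CPM in the FL1 mice. Since every ctrl mouse held 3 counts or fewer, it was at least 15.6-fold higher, measured against 3 counts per library. On the same scale Klhl30, a Kelch-like protein, was at least 16.3-fold and the processed pseudogene Gm8670, which overlaps Trat1 on the same strand, at least 18.6-fold higher. Adh7 and Klhl30 were each called in 2 and Gm8670 in 1 of the 10 fits without 1 mouse. The long non-coding RNA AC145590.1 was at least 30.6-fold higher, and without FL1 replicate 2 it was not called (adjusted p = 0.0695 by edgeR). For D630023F18Rik, an uncharacterised gene that shares its reads with Gm28845, FL1 replicate 2 had 98.7 CPM and the next FL1 mouse 9.56 CPM. Without FL1 replicate 2 its log2 fold change was 4.13 (adjusted p = 0.326 by edgeR), against 6.06 with all mice. It was 8.08 (adjusted p = 0.0101 by edgeR) without ctrl replicate 4. Ssu2 lies 85.7 kb from Oxtr on chromosome 6, with no tested gene between them, and stood at 0, 0, 3.13, 1.65 and 1.58 CPM in the ctrl mice and 23.1, 101.7, 5.54, 18.9 and 5.48 CPM in the FL1 mice (log2 fold change 4.56 with an SE of 0.98, adjusted p = 0.0327 by edgeR). Its value was 3.35 (adjusted p = 0.278 by edgeR) without FL1 replicate 2 and 5.24 (adjusted p = 0.0438 by edgeR) without ctrl replicate 3. Fitted sizes of genes near 0 in a line depend on the prior count.

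In lipid metabolism the calls pointed both ways. Of 18 genes of gangliosides and glycosphingolipids, Gm2a was higher and St3gal5 and Neu3 were lower, and the median was 0.00. St3gal5, which makes the simplest ganglioside by adding sialic acid to lactosylceramide, stood at 170.4, 212, 181, 178 and 184 CPM in the ctrl mice and 32.2, 31.8, 54.3, 34.5 and 57.9 CPM in the FL1 mice. The ctrl mice were close together and every FL1 mouse was below 60 CPM (log2 fold change −2.14 with an SE of 0.22, adjusted p = 3.86e-05 by edgeR). Neu3, a sialidase that acts on gangliosides, stood at 94.7, 44.6, 81.0, 86.5 and 54.6 CPM in the ctrl mice and 26.8, 7.57, 12.8, 29.3 and 4.45 CPM in the FL1 mice (log2 fold change −2.16 with an SE of 0.43, adjusted p = 0.0169 by edgeR), and without FL1 replicate 3 its value was −2.07 (adjusted p = 0.0509 by edgeR). Gm2a, the activator protein for ganglioside breakdown in lysosomes, stood at 83.9, 97.1, 137, 167 and 161 CPM in the ctrl mice and 363, 1131, 287, 456 and 304 CPM in the FL1 mice, without overlap and with FL1 replicate 2 on top (log2 fold change 1.98 with an SE of 0.34, adjusted p = 0.00774 by edgeR). Of 30 genes of fatty acid activation, storage and lipolysis, Acsl4 and Nceh1 were called higher and none lower by edgeR, while DESeq2 called 5 higher and 1 lower. Nceh1, which hydrolyses cholesterol esters, stood at 61.1, 78.7, 85.0, 75.6 and 66.4 CPM in the ctrl mice and 183, 145, 102.4, 173 and 161 CPM in the FL1 mice (log2 fold change 1.06 with an SE of 0.20, adjusted p = 0.0138 by edgeR). Acsl4, an acyl-CoA synthetase with a preference for arachidonate, was called in 2 of 10 fits without 1 mouse, and leaving out FL1 replicate 2 gave 0.95 (adjusted p = 0.105 by edgeR). The lipid droplet protein gene Plin5, not on the list, stood at 0, 0, 4.98, 0 and 0 CPM in the ctrl mice and 23.1, 105.5, 11.6, 25.2 and 7.53 CPM in the FL1 mice, where ctrl replicate 3 was the 1 ctrl mouse above 0 (log2 fold change 4.99 with an SE of 1.13, adjusted p = 0.0462 by edgeR). Without FL1 replicate 2 it was 4.0 (adjusted p = 0.247 by edgeR) and without ctrl replicate 3 10.8 (adjusted p = 0.00207 by edgeR). Plin5 was called in 4 of 10 fits without 1 mouse. Lower were the phospholipid flippase Atp10d, which stood at 55.5, 57.7, 59.5, 23.5 and 36.0 CPM in the ctrl mice and 0.159, 1.89, 8.23, 4.55 and 9.76 CPM in the FL1 mice (log2 fold change −3.24 with an SE of 0.61, adjusted p = 0.0125 by edgeR), and Sgpp2, Serinc5 and Etnk2, genes of sphingolipid and phospholipid metabolism, at −2.48, −1.2 and −1.96 on the log2 scale (adjusted p = 0.0071, 0.0121 and 0.00817 by edgeR).

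The malic enzyme genes Me1 and Me2 went opposite ways. Me1, the cytosolic form that makes NADPH, stood at 99.5, 162, 279, 303 and 307 CPM in the ctrl mice and 502, 1216, 591, 661 and 351 CPM in the FL1 mice (log2 fold change 1.53 with an SE of 0.33, adjusted p = 0.0327 by edgeR), and Me2, the mitochondrial form, stood at 216, 206, 302, 436 and 364 CPM in the ctrl mice and 174, 115.7, 127, 142 and 121 CPM in the FL1 mice (log2 fold change −1.17 with an SE of 0.22, adjusted p = 0.0145 by edgeR). Both were without overlap, Me1 was called in 5 of 10 fits without 1 mouse, and they were the 2 genes called among 15 of NADPH supply. Glycolysis had 0 of 21 genes called by edgeR and 1 by DESeq2, with 5 at an unadjusted p under 0.05 and a median of 0.39. Of 16 genes of the prostaglandin and eicosanoid list Hpgd, which inactivates prostaglandins, and Lta4h, which makes leukotriene B, were lower (log2 fold change −2.0 and −1.21, adjusted p = 0.0424 and 0.0357 by edgeR), called in 2 and 4 of 10 fits without 1 mouse. Without FL1 replicate 4 Hpgd was at −2.68 (adjusted p = 0.00116 by edgeR). Gmpr, which turns guanosine monophosphate into inosine monophosphate, stood at 116.3, 78.4, 122, 72.3 and 94.4 CPM in the ctrl mice and 29.3, 17, 44.3, 35.2 and 44.2 CPM in the FL1 mice, with every FL1 mouse below ctrl (log2 fold change −1.51 with an SE of 0.27, adjusted p = 0.0101 by edgeR). Gulo, the enzyme of the last step of vitamin C synthesis, fell with overlap of the lines (log2 fold change −2.06, adjusted p = 0.0441 by edgeR) and was called in 3 of these fits. Among 34 nuclear genes of the respiratory chain none was called by edgeR or DESeq2, and 5 had an unadjusted p under 0.05. All 21 tested transcripts of the mitochondrial genome had an unadjusted p above 0.05.

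Among lower genes were some of the extracellular matrix. Adamts2 (ENSMUSG00000036545, plus strand of chromosome 11 at 50602084-50807573), which cuts the amino-terminal propeptide off procollagens, stood at 263, 307, 259.6, 277 and 212 CPM in the ctrl mice and 85.4, 55.0, 82.3, 138 and 91.6 CPM in the FL1 mice. The groups were far apart and all 10 fits without 1 mouse called it (log2 fold change −1.54 with an SE of 0.22, adjusted p = 0.00199 by edgeR). Col9a2 (ENSMUSG00000028626, plus strand of chromosome 4 at 121039385-121055322), a chain of the fibril-associated type IX collagen, stood at 53.9, 104.5, 93.7, 45.1 and 25.1 CPM in the ctrl mice and 5.42, 2.52, 12.0, 6.82 and 13.4 CPM in the FL1 mice (log2 fold change −3.01 with an SE of 0.46, adjusted p = 0.00284 by edgeR). Col6a4, a type VI collagen chain, stood at 13, 19.2, 20.9, 24.0 and 7.37 CPM in the ctrl mice and 0.159, 0.505, 2.53, 0.284 and 1.2 CPM in the FL1 mice (log2 fold change −4.16 with an SE of 0.77, adjusted p = 0.0121 by edgeR). Without FL1 replicate 3 Col6a4 was at −4.93 (adjusted p = 0.0059 by edgeR). Mfap2, which binds fibrillin microfibrils, stood at 251, 234, 346, 251 and 238 CPM in the ctrl mice and 121, 60.2, 83.2, 32.4 and 116.2 CPM in the FL1 mice, with no FL1 value in the ctrl range (log2 fold change −1.67 with an SE of 0.29, adjusted p = 0.0071 by edgeR). Within the list of 22 genes of basal lamina and matrix tested Mfap2 was the 1 call by edgeR, and the median was 0.18. DESeq2 called 3 of these genes higher and 2 lower. Crispld2, a secreted LCCL-domain protein, was lower with overlap (log2 fold change −1.18, adjusted p = 0.0355 by edgeR). Rises were seen for the protease inhibitor Timp1, at 76.8 ± 37.0 CPM in ctrl and 225 ± 51.4 CPM in FL1 mice (SD, n = 5 each), for Ecm1, a secreted matrix glycoprotein, and for Spp1, which encodes osteopontin. Spp1 stood at 0.296, 3.30, 19.6, 28.7 and 16.2 CPM in the ctrl mice and 237, 226, 37.7, 25 and 282 CPM in the FL1 mice. FL1 replicates 3 and 4 lay near or within the ctrl range (log2 fold change 3.57 with an SE of 0.77, adjusted p = 0.0327 by edgeR). Ecm1 was called in 2, Crispld2 in 3, Spp1 in 4 and Timp1 in 8 of 10 fits without 1 mouse, and the fits that lost Timp1 were those without ctrl replicate 2 (adjusted p = 0.0509 by edgeR) or 3 (adjusted p = 0.0557 by edgeR).

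Called genes of secreted and immune proteins moved in both directions. Wfdc10 (ENSMUSG00000070529, plus strand of chromosome 2 at 164656046-164657368), with the whey acidic protein domain of protease inhibitors, stood at 169, 245, 141, 152 and 228 CPM in the ctrl mice and 2.55, 7.82, 2.53, 0 and 2.74 CPM in the FL1 mice. It was all but lost in FL1 mice (log2 fold change −5.87 with an SE of 0.54, adjusted p = 9.42e-06 by edgeR, and −6.59 without FL1 replicate 2), and likewise lower in diestrus (log2 fold change −5.38, adjusted p = 3.25e-05 by edgeR). It overlaps Wfdc9 on the other strand, and the strand setting of the counting is not given. The beta-defensin gene Defb19 stood at 141, 119, 137, 124 and 233 CPM in the ctrl mice and 346, 255, 261, 278 and 289.9 CPM in the FL1 mice (log2 fold change 0.92 with an SE of 0.21, adjusted p = 0.0427 by edgeR) and was called in 2 of 10 fits without 1 mouse. H2-K1 (ENSMUSG00000061232, minus strand of chromosome 17 at 33996017-34000347), a heavy chain of MHC class I, stood at 88.8, 103.7, 51.2, 100 and 89.2 CPM in the ctrl mice and 323, 284, 215, 183 and 235 CPM in the FL1 mice, all FL1 mice above ctrl (log2 fold change 1.52 with an SE of 0.22, adjusted p = 0.00219 by edgeR). H2-K1 is similar to 16 other genes, and H2-D1, another class I chain, stood at 42.6, 13.4, 114.6, 20.7 and 11.1 CPM in the ctrl mice and 159, 194, 137, 63.5 and 202 CPM in the FL1 mice, with overlap (log2 fold change 1.90 with an SE of 0.51, adjusted p = 0.0989 by edgeR). H2-K1 was the 1 call among 13 genes of MHC class I and peptide loading, whose median was 0.15. Of 20 interferon response genes none was called by edgeR, while DESeq2 called 3 and 4 had an unadjusted p under 0.05.

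Further lower genes encode channel, receptor and signalling proteins. Kctd14 (ENSMUSG00000051727, plus strand of chromosome 7 at 97451323-97459557), of a family with a channel tetramerisation domain, was the most abundant, and stood at 926, 691, 1024, 817 and 519.6 CPM in the ctrl mice and 209, 117, 204, 255 and 339 CPM in the FL1 mice. The ranges were apart (log2 fold change −1.82 with an SE of 0.26, adjusted p = 0.0014 by edgeR). Kctd14 shares a stretch of its 3′ end with 181 other genes. Grik3, a kainate receptor subunit, stood at 111.3, 123, 95.2, 128 and 54.6 CPM in the ctrl mice and 33.3, 25.6, 46.8, 16.1 and 33.9 CPM in the FL1 mice (log2 fold change −1.72 with an SE of 0.29, adjusted p = 0.0071 by edgeR). Kcnj2, an inward rectifier potassium channel, stood at 33.0, 28.8, 18.2, 5.99 and 23.2 CPM in the ctrl mice and 0, 0.883, 1.42, 0 and 0.342 CPM in the FL1 mice, so that it was near 0 in FL1 mice (log2 fold change −5.31 with an SE of 0.87, adjusted p = 0.00499 by edgeR), and at −6.0 (adjusted p = 0.00473 by edgeR) without FL1 replicate 3. Tmem158, a membrane protein induced by Ras, stood at 25.9, 37.1, 36.5, 49.998 and 22.3 CPM in the ctrl mice and 7.33, 8.33, 7.44, 6.82 and 8.05 CPM in the FL1 mice (log2 fold change −2.17 with an SE of 0.35, adjusted p = 0.00415 by edgeR). Camk2n1, an inhibitor of the kinase CaMKII, stood at 26.8, 149, 105.1, 123 and 140.4 CPM in the ctrl mice and 36.3, 26.1, 22.3, 8.24 and 26.0 CPM in the FL1 mice. Ctrl replicate 1 lay in the FL1 range and the other ctrl mice did not (log2 fold change −2.19 with an SE of 0.40, adjusted p = 0.0119 by edgeR). Dpysl5, of the collapsin response mediator family, fell by 1.47 on the log2 scale (adjusted p = 0.0291 by edgeR). In contrast Atp1b1, a subunit of the sodium pump, was higher (log2 fold change 1.21, adjusted p = 0.0179 by edgeR), as was Sgk1, a kinase that raises sodium transport, with overlap (log2 fold change 1.84, adjusted p = 0.0462 by edgeR). Without FL1 replicate 2 Sgk1 was not called, at 1.17 (adjusted p = 0.105 by edgeR). Sgk1 was called in 2, Dpysl5 in 5 and Atp1b1 in 7 of 10 fits without 1 mouse. Of 17 genes of sodium pump and potassium channels, these 2 and Kcnj2 were the calls.

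Lower genes with roles in DNA and RNA included Rpa3 (ENSMUSG00000012483, minus strand of chromosome 6 at 8255936-8259173), the smallest subunit of the replication protein that coats single-stranded DNA. Rpa3 stood at 35.8, 32.8, 41.7, 29.8 and 83.2 CPM in the ctrl mice and 9.72, 11.4, 12.8, 11.9 and 11.5 CPM in the FL1 mice. The FL1 mice were within a narrow band below all ctrl mice (log2 fold change −1.96 with an SE of 0.33, adjusted p = 0.0071 by edgeR), but a near-identical copy, Gm6195, can take up its reads. Ppih, a cyclophilin of the spliceosome with 7 such copies, stood at 48.6, 17.6, 40.2, 36.4 and 27.7 CPM in the ctrl mice and 5.89, 7.44, 8.07, 0.995 and 6.68 CPM in the FL1 mice (log2 fold change −2.55 with an SE of 0.48, adjusted p = 0.0138 by edgeR). Pgbd5, derived from a piggyBac transposase, stood at 146, 209.9, 195, 262 and 125 CPM in the ctrl mice and 65.6, 54.0, 97.3, 50.7 and 80.8 CPM in the FL1 mice (log2 fold change −1.43 with an SE of 0.24, adjusted p = 0.0071 by edgeR). It lies 117 kb from the angiotensinogen gene Agt on chromosome 8, which was lower as well (log2 fold change −1.82, adjusted p = 0.00965 by edgeR), with 1 tested gene between them. Tsen34, a subunit of the tRNA splicing endonuclease, was lower with overlap (log2 fold change −1.64, adjusted p = 0.023 by edgeR), and Eya3, a phosphatase and coactivator, fell by 1.09 on the log2 scale (adjusted p = 0.0396 by edgeR). Of 10 fits without 1 mouse, 5 called Tsen34 and 3 called Eya3.

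Some of the strongest decreases were in ribosomal protein genes whose reads cannot be placed with certainty. Rps2 stood at 312, 255, 437, 311 and 363 CPM in the ctrl mice and 17.8, 12.5, 19.1, 3.84 and 20.5 CPM in the FL1 mice (log2 fold change −4.51 with an SE of 0.35, adjusted p = 1.15e-06 by edgeR), Rpl29 stood at 20.4, 35, 34.9, 38.3 and 34.2 CPM in the ctrl mice and 0.159, 0.631, 0, 0 and 1.54 CPM in the FL1 mice (log2 fold change −6.10 with an SE of 0.75, adjusted p = 0.000277 by edgeR), and Rpl32 stood at 1424, 891, 1481, 949 and 2104 CPM in the ctrl mice and 363, 252, 258, 209 and 299.8 CPM in the FL1 mice (log2 fold change −2.31 with an SE of 0.24, adjusted p = 4.37e-05 by edgeR). For each of these genes, and for Rpl7a, no FL1 mouse reached the ctrl range. Without FL1 replicate 5 Rpl29 was at −7.15 (adjusted p = 0.000103 by edgeR), and Rpl7a was called in 5 of 10 fits without 1 mouse. Near-identical copies number 83 for Rps2, 135 for Rpl7a, 9 for Rpl32 and more than 100 for Rpl29, and the counts hold no reads with several equally good matches. Such reads made up 27.76 to 32.78% of all reads in ctrl and 26.39 to 27.71% in FL1 mice in estrus, without overlap of the lines. The part of this in the lower counts was not tested. Over 80 cytosolic ribosomal protein genes tested the median was −0.25, with these 4 called lower and none higher. Gm14267, with 31 copies, and AA465934, a transcript that overlaps Snord7, were also lower. AA465934 stood at 285, 379, 5.79, 562 and 11.9 CPM in the ctrl mice and 13.1, 9.34, 7.6, 0 and 2.57 CPM in the FL1 mice. Ctrl replicates 3 and 5 lay with the FL1 mice and the other 3 ctrl mice were far above (log2 fold change −5.25 with an SE of 1.03, adjusted p = 0.0168 by edgeR). Gm14267 was not called without ctrl replicate 2 (adjusted p = 0.074 by edgeR), nor AA465934 without FL1 replicate 5 (adjusted p = 0.0549 by edgeR).

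Over all 30 function lists, 670 genes were tested, 26 were called higher and 10 lower, against 0.415% and 0.354% of all genes tested. By edgeR no gene was called in 11 lists, 11 had only higher calls, 4 only lower calls and 4 both. DESeq2 called no gene in the cholesterol and respiratory chain lists and at least 1 in each of the others of the first 11. Among lists with edgeR calls in 1 direction, DESeq2 called genes in both for fatty acids, extracellular proteases, ceramide and matrix. The medians ran from −0.35 for the cell cycle to 0.72 for S100 proteins, annexins and galectins. The lists were chosen with earlier results of these data known. In the glutathione and antioxidant list (35 tested) Vnn1, a pantetheinase, was the 1 call and was higher, and among 17 genes of iron handling it was Cybrd1, a ferric reductase, also higher. The insulin and IGF list had Pik3c2g, a lipid kinase, as its 1 call of 26. Igf1 stood at 539, 583, 775, 690.4 and 671 CPM in the ctrl mice and 880.5, 585, 1085, 956 and 1121 CPM in the FL1 mice (log2 fold change 0.51 with an SE of 0.19, adjusted p = 0.305 by edgeR). The semaphorin and ephrin list had Efna5, a membrane-anchored ligand of Eph receptors (log2 fold change 1.40, adjusted p = 0.0327 by edgeR). Of 10 fits without 1 mouse, 3 called Efna5, 3 Cybrd1 and 4 Pik3c2g. Neither the Wnt list (29 tested) nor the immediate early genes (21 tested) nor the ovulation list (19 tested) held a call by edgeR, with 7, 4 and 3 genes at an unadjusted p under 0.05. DESeq2 called 3 of the Wnt genes, 1 of the immediate early genes and 1 of the ovulation genes.

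**Figure D3:**
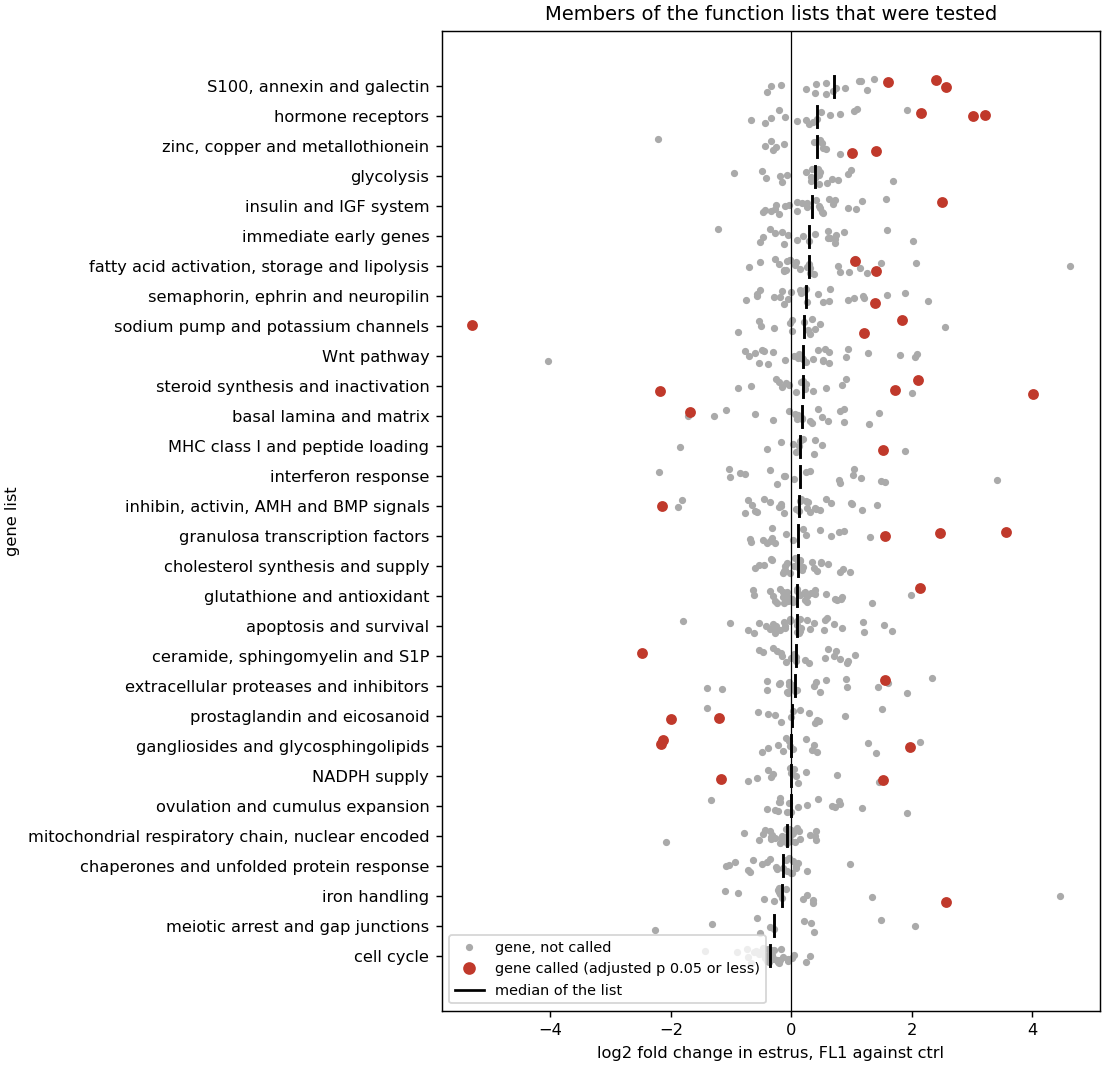
Log2 fold change in estrus (FL1 against ctrl) of every tested gene in each of the 30 function lists, with genes that passed the test in red and the list median as a black bar. Most medians lie near 0, the S100, annexin and galectin list is farthest to the right and the cell cycle list farthest to the left.

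The same contrast in diestrus is the nearest comparison. There 32 of 12886 genes tested (0.248%) were called. Of the 100 genes called in estrus 92 could be tested in diestrus, and the median ratio of the diestrus to the estrus log2 fold change was 0.556. For 26 the diestrus value was at least 0.8 of that in estrus, and for 16 it was under 0.2 of it or of the other sign. Zpld1, Star, Wfdc10, St3gal5, Rps2 and Rpl32 were among 14 genes called in both stages. The direct test of the difference, the interaction of line and stage, called 0 of 14938 genes by edgeR, with 710 (4.75%) at an unadjusted p under 0.05, and the smallest adjusted p was 0.933. DESeq2 called 1 gene (0.00372%), Smim5, which was not tested in estrus by edgeR. A line difference in estrus alone was thus not shown for any gene tested by edgeR.

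Of the 100 genes 34 had an unadjusted interaction p under 0.05, and since they were chosen by their p in estrus this share is a description. The lowest was that of Kctd14, with a log2 fold change of −1.82 in estrus and −0.21 in diestrus. The corresponding values were 3.23 and 0.35 for Oxtr, −3.01 and −0.19 for Col9a2, 2.16 and 0.45 for Prlr, and −2.17 and −0.19 for Tmem158. For Jam2 they were −1.07 and −1.11, for H2-K1 1.52 and 1.30, and for Igsf3 1.38 and 1.21. These genes had adjusted p = 0.058, 0.104 and 0.171 in diestrus by edgeR and were not called there.

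**Figure D4:**
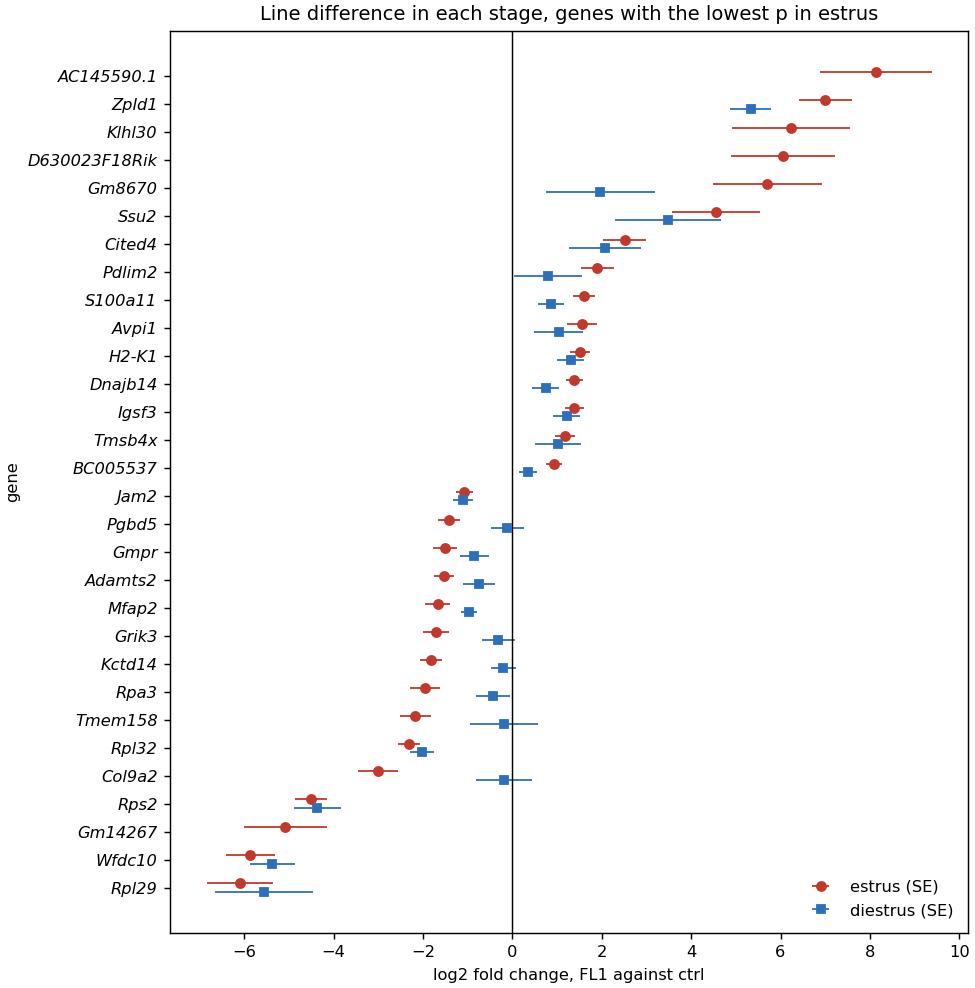
Fitted log2 fold change (FL1 against ctrl, with SE as bars) in estrus (red circles) and diestrus (blue squares) for the 30 genes outside the study's tables with the lowest p in estrus, 15 in each direction; those without a square had too few counts in diestrus, and the fitted size for genes near 0 in a line depends on the prior count. Circle and square lie close together for Rps2, Rpl32, Rpl29 and Wfdc10, while Kctd14, Col9a2, Tmem158 and Pgbd5 are near 0 in diestrus.

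By position, called genes came from every autosome but chromosome 12 and from chromosome X. Chromosome 3 held 7 higher genes and none lower, with 1.06% of its 659 tested genes called, against 0.769% of all genes tested. Chromosome 4 held 1 higher and 7 lower, 1.0% of its 796 tested genes. Chromosome 8 had the largest share, 1.46% of 685, with 5 in each direction. Each of these shares rests on few genes. Besides Mt2 and Mt1, Ssu2 and Oxtr, and Pgbd5 and Agt, 4 further pairs of called genes lay within 1 Mb of each other. Dnajb14 and Adh7 (301 kb) both rose, Col6a4 and Rpl29 (333 kb) both fell, and in Cited4 and Col9a2 (372 kb) and in Ocel1 and Isyna1 (774 kb) the first gene rose and the other fell. Ocel1 was called in 2 of 10 fits without 1 mouse, and stood at 2.73 (adjusted p = 0.00484 by edgeR) without ctrl replicate 1. Genes between the members of these 4 pairs were tested and not called, 4, 6, 4 and 19 of them in this order.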

How the data were processed

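GCs of 20 mice were measured by QuantSeq 3′ sequencing, and the 10 mice in estrus are reported here. Trimmed reads were mapped by the authors to GRCm38 (STAR), and they deposited raw read counts per Ensembl gene, 1 table per mouse, in which reads with several equally good matches are not assigned to genes. The strand setting of the counting is not given in the sources used here. Of 55487 identifiers 55141 were matched to GENCODE M21 symbols. All samples had a line, a stage and a replicate number in the labels, and lines of unassigned reads were left out of library sizes. The depth was 5699991 to 8257041 reads on genes per ctrl mouse and 6043812 to 7665947 per FL1 mouse, so the precision of low genes is set by few counts. No 2 samples of the same line and stage agreed within sampling noise.

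Counts of the 10 mice were tested with edgeR 4.0.16 in R 4.3.3 (TMM, quasi-likelihood F test without robust estimation, Benjamini-Hochberg adjustment over all genes tested, threshold 0.05), after filterByExpr at its defaults (count 10, total 15, share 0.7). Each mouse is a biological replicate. The study itself used DESeq2, which was kept as an alternative (1.42.0), next to limma-voom with sample weights (limma 3.58.1), RLE size factors, other filters, robust estimation, all 20 samples in 1 fit, a block for the replicate number, and the omission of each mouse in turn. All 20 samples entered the fit of the interaction. SEs are the log2 fold change divided by the square root of F. The edgeR, DESeq2 and limma steps were tested on simulated data with known changes. Folds are lower bounds where each mouse of a line held 3 counts or fewer. Copies were searched with BLAST 2.17.0 over the last 500 nt of transcripts (at least 90% identity over 100 nt). Promoter sequences are from RefSeq on GRCm38.p6.

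Named are the 15 genes per direction with the lowest p among called genes outside the study's tables without overlap of the lines and with a mean of at least 10 counts, called members of the lists, and 24 reference genes of GC biology. Other called genes were named by function, and some genes of these rules are not reported here. The members, the 30 function lists and the 12 marker lists were chosen with earlier results of these data known.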

Additional observations from a re-analysis of the deposited data

Results flagged for a closer look

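For 84 genes named here, each line was checked for a mouse that stood apart from the other 4, measured as the gap of the highest or lowest mouse to its neighbour divided by the range of the 5 mice. The limit was 0.71, which chance alone passes in about 1 in 20 groups where values are normally distributed. Gaps were taken on CPM without logs and many of the genes were chosen as called, so this rate does not apply here. Of 165 pairs of gene and line 23 passed the limit, which is a description. FL1 replicate 2 was the mouse in 16 of the 23, each time as the highest value. For genes of hormone response and steroid synthesis its gap was 0.857 for Lhcgr, 0.822 for Prlr, 0.76 for Runx2, 0.792 for Cyp11a1 and 0.853 for Fdx1. It was 0.799 for Gm2a, 0.895 for Acsl4, 0.77 for Vnn1, 0.852 for Rora, 0.758 for Sgk1 and 0.811 for Mt1. Among genes outside the study's tables it was 0.865 for AC145590.1, 0.942 for D630023F18Rik, 0.873 for Pdlim2, 0.793 for Avpi1 and 0.817 for Ssu2.

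One other FL1 mouse stood apart, replicate 4 with the highest Hpgd value (0.725). In the ctrl line the highest mouse stood apart for D630023F18Rik (replicate 4, 0.883), Rpa3 (replicate 5, 0.777), Mfap2 (replicate 3, 0.845) and Ptgs2 (replicate 2, 1, where the other 4 mice were at 0). The lowest ctrl mouse stood apart for H2-K1 (replicate 3, 0.716) and Rpl29 (replicate 1, 0.772). FL1 replicate 2 also had the highest summed luteal markers and the lowest summed granulosa markers of its line, and the part of this in the gaps was not tested.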

How the results depend on the processing

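DESeq2 called 422 genes in estrus (255 higher, 167 lower), and no filter on low counts gave 373 (238 and 135). Robust estimation called 35 higher genes. In diestrus DESeq2 called 118 (61 and 57), and for the difference between stages 1, which was lower. With the replicate number as a block edgeR called 58 genes in estrus (30 higher, 28 lower) and 13 in diestrus (5 and 8). The numbers mark different mice, and mice of the 2 lines with the same number did not deviate together (correlations −0.068 to 0.0385, and no mouse was closest to its own number), so that the block is not a pairing of the samples. Leaving out 1 mouse at a time gave 66 to 130 genes in estrus (32 to 74 higher, 34 to 64 lower), with the lowest total without FL1 replicate 1 and 33 higher genes without FL1 replicate 2. In diestrus it gave 21 to 32 (7 to 11 higher, 13 to 21 lower), with fewest in total without FL1 replicate 4, fewest higher without FL1 replicate 1, ctrl replicate 4 or ctrl replicate 5, and fewest lower without FL1 replicate 3 or 4. The difference between stages gave 0 every time. RLE size factors, a mean count of at least 10 and 1 fit of all 20 samples kept the estrus count within 1.5 times of 100. Among the single genes, sign changes were confined to genes that were not called. These were Cyp19a1 (−0.15 to 0.69 over the fits without 1 mouse), Bax (−0.022 to 0.18) and Insr (−0.36 to 0.097, and 0.029 with limma-voom). Under the alternatives that kept all mice, 61 pairs of gene and setting lost the call and 597 stayed the same. A gene can count more than once among these pairs, and 19 of the 61 came from the replicate block. The cause of these changes was not tested. Depth limits genes near 0 in 1 line, whose fitted sizes depend on the prior count, and bounds are given where every mouse of a line held 3 counts or fewer.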
